A study of Mus musculus with 5 samples.

Results

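The genes of collagen hydroxylation, folding, processing and crosslinking were followed in primary mouse rib chondrocytes over 15 days of culture. The set held 10 genes: P4ha1, P4ha2, Plod1, Plod2, Serpinh1, Pcolce, Pcolce2, Lox, Loxl1 and Loxl2, and every probe set annotated to one of these symbols alone was read. There were 17 such probe sets of 45101 on the array. They measured 9 of the 10 genes, all 9 of which were among the 11075 of 18193 genes bright enough to be kept. Loxl2 was not measured on its own, because both of its probe sets were also annotated to the gene Gm21451.

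The cells came from rib cages of embryonic day 18.5 mice of the FVB strain and carried no stated transgene or mutation. They were released with collagenase and trypsin and grown on gelatin in a medium with serum, ascorbic acid and beta-glycerophosphate, which the labels give for every day. There was 1 array each for day 2, day 6, day 9, day 12 and day 15, and the labels do not say whether the dishes shared an isolate or whether embryos were pooled. The values are probe-set intensities on a linear scale, set to a common mean on every array, so a level is relative to the rest of its own array. Chondrocyte RNA was present on every array: all 10 of 10 chondrocyte markers, among them Acan, Col2a1 and Sox9, were at or above the floor of 73.0 (the 40th percentile of all values) on each day.

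Collagen chains are modified inside the endoplasmic reticulum before they fold. Prolyl 4-hydroxylase, a tetramer of P4HA and P4HB subunits, hydroxylates prolines and so stabilises the triple helix. Lysyl hydroxylases, the PLOD enzymes, hydroxylate lysines that later carry crosslinks, and both families need oxygen, iron, 2-oxoglutarate and ascorbate. The chaperone HSP47, made from Serpinh1, holds the folded helix during export, procollagen C-proteinase enhancers speed removal of the C-terminal propeptide outside the cell, and the lysyl oxidases LOX and LOXL1 to LOXL4 start the covalent crosslinks of collagen and elastin.

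The 9 genes did not share a course. Lox, Loxl1 and Pcolce were already high at day 6 and stayed near that level. P4ha1, P4ha2 and Plod1 were low at days 9 and 12 and highest at day 15. Pcolce2 was lower on each later array than on the one before, Plod2 was moderately lower from day 9 on, and Serpinh1 was nearly level. At day 15, 3 genes, Lox, Loxl1 and Pcolce, were at least 2-fold higher than at day 2 (16.2% of all 11075 genes were) and 1, Pcolce2, was at least 2-fold lower (11.6% of all genes), leaving 5 within 2-fold. Relative to day 2, the median log2 difference of the 9 genes on days 6, 9, 12 and 15 was 0.45, -0.74, -0.82 and 0.82, so the day 15 sign was not that of the 2 arrays before it. Over all genes the day 15 median was 0.00. With 1 array a day no difference between 2 days has a replicate error or a p-value. The SD attributed to 1 probe set in a log2 difference was 0.60 between day 15 and day 2, and 0.40 between day 15 and day 12. It came from 2014 genes with 2 bright probe sets, as the SD of their gap divided by the square root of 2. That SD holds no variation between dishes or arrays.

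**Figure D1:**
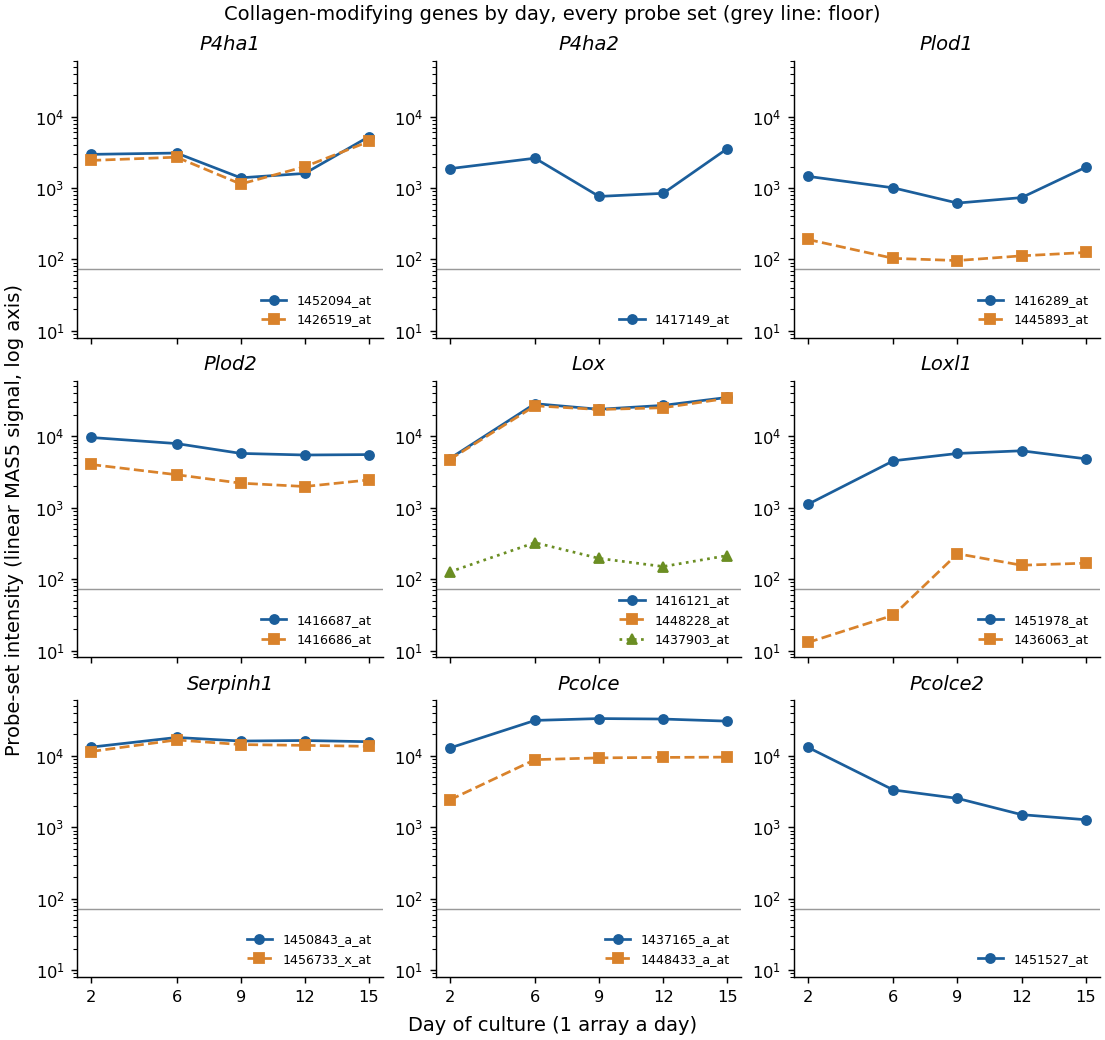
Intensity of every probe set of the 9 measured genes (log axis) at days 2, 6, 9, 12 and 15, with 1 array a day and 1 line for each probe set; the grey line is the floor of 73.0. P4ha1, P4ha2 and the bright Plod1 probe set dip at days 9 and 12, Lox, Loxl1 and Pcolce step up by day 6, and Pcolce2 is lower on each later array.

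The prolyl 4-hydroxylase genes P4ha1 and P4ha2 had a trough and a late high. P4ha1, the main catalytic alpha subunit in most cells, had intensities of 2964, 3092, 1391, 1603 and 5245 at days 2, 6, 9, 12 and 15 by its brightest probe set. Its other probe set read 2436, 2706, 1139, 1991 and 4491. Both probe sets were lowest at day 9 and highest at day 15. P4ha2, the second catalytic subunit and the main form in chondrocytes, read 1866, 2619, 763, 844 and 3566. It too was lowest at day 9, and its level at day 15 stood above each of the other 4 arrays. At day 15 P4ha1 was 3.27-fold higher than at day 12 by the brightest probe set and 2.26-fold by the other, and P4ha2 was 4.23-fold higher.

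The day 15 level was less far from that of day 2. Against day 2, P4ha1 was 1.77-fold and P4ha2 1.91-fold higher at day 15, both under 2-fold. At day 12 they stood on the other side of day 2, with log2 differences of -0.89 for P4ha1 and -1.15 for P4ha2. The higher level of these 2 subunits at day 15 than at day 2 therefore rests on the day 15 array alone. Over all 9 genes, day 12 against day 2 gave 3 members past 2-fold upward (16.1% of all genes) and 2 downward, P4ha2 and Pcolce2 (11.4%). Day 9 against day 2 gave 3 upward (15.1%) and 4 downward, P4ha1, P4ha2, Plod1 and Pcolce2 (10.3%).

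Set against day 9, day 15 was past 2-fold upward in P4ha1, P4ha2 and Plod1 (5.02% of all genes) and in 0 members downward (4.06%). Set against day 6, it was past 2-fold upward in 0 members (8.42%) and downward in Pcolce2 alone (6.16%).

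Of the lysyl hydroxylase genes in the set, Plod1 resembled P4ha1 and P4ha2 by its brightest probe set and Plod2 did not. Plod1, which acts on lysines of the helix, read 1459, 1006, 616, 735 and 1955 in order of day by its brightest probe set, 2.66-fold higher at day 15 than at day 12. A second, dim probe set of Plod1 read 191, 104, 96.5, 112 and 125, 1.11-fold higher at day 15 than at day 12, so it does not show the late high. Plod2, which acts on lysines of the telopeptides that anchor crosslinks, read 9630, 7914, 5762, 5473 and 5549. Its other probe set read 4031, 2899, 2208, 1982 and 2450. Both Plod2 probe sets were highest at day 2, and at day 15 they were 1.74-fold and 1.64-fold lower than at day 2.

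Serpinh1 was the flattest of the 9 genes. It had 13309, 18177, 16199, 16470 and 15847 in order of day, and 11553, 16779, 14452, 14076 and 13650 by a second probe set. Its highest and lowest arrays, days 6 and 2, differed 1.37-fold and 1.45-fold by these probe sets.

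Because P4ha1, P4ha2 and Plod1 were high together at day 15, their promoters are shown beside that of Serpinh1, which was level. The sequences are the 250 bases before each RefSeq start, 5′ to 3′ on the gene's strand, from assembly GRCm38.p6. Capitals mark ACGTG or GCGTG on either strand, the core letters that hypoxia-inducible factor is known to bind.
P4ha1, chr10:59323046-59323295, plus strand: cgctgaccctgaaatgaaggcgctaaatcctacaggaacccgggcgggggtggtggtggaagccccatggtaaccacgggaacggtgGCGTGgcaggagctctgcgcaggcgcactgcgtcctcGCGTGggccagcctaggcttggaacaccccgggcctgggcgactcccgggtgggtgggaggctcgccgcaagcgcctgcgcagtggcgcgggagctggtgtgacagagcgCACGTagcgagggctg
P4ha2, chr11:54100674-54100923, plus strand: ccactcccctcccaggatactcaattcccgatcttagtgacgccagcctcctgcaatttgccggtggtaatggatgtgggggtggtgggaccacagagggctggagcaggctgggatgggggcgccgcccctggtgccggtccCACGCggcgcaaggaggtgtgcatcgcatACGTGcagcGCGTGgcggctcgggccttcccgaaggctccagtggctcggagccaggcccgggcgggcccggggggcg
Plod1, chr4:147936777-147937026, minus strand: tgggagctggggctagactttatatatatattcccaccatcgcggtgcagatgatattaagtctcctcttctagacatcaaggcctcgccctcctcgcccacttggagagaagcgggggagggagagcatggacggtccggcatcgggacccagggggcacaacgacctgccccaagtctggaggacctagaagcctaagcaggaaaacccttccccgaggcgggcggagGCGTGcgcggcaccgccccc
Serpinh1, chr7:99353240-99353489, minus strand: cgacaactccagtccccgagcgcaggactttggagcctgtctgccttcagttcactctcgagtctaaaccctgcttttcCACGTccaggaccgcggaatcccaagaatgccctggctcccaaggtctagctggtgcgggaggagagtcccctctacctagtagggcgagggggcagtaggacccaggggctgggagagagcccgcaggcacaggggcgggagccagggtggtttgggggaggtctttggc
P4ha1 and P4ha2 each held 3 such matches in the printed bases and Plod1 and Serpinh1 held 1. Of 32851 RefSeq promoters, 38.6% held at least 1 match in these 250 bases and 6.58% held 3 or more. In the whole window of 300 bases, which runs 50 bases past the start, there were 3 matches for P4ha1, 4 for P4ha2, 2 for Plod1 and 1 for Serpinh1. Of all promoters, 43.8% held at least 1 match in that window, 20.6% at least 2, 8.93% at least 3 and 3.86% at least 4. Pcolce held 1 match there and Pcolce2 none. Windows were given for 6 of the 10 genes. CCAAT on either strand was found in none of these 6, and in 37.4% of all promoters. CCACG, letters of the unfolded protein response element, overlaps the marked words wherever CCACGT or CCACGC occurs. In the window of 300 bases it had 3 matches each in P4ha1 and P4ha2 and 2 in Serpinh1. Plod1 and Pcolce had 1 and Pcolce2 none. Of all promoters, 32.8% held at least 1 CCACG in that window, 10.1% at least 2 and 3.05% at least 3. These matches are letters in a window and not shown binding sites.

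Oxygen-responsive genes were high on the same array as P4ha1, P4ha2 and the bright probe set of Plod1. Plod2 was not high there, at 1.01-fold its day 12 level. Day 15 stood at or above 2-fold over day 12 in 20 of the 24 genes measured on a hypoxia and glycolysis list, in 3 of the 9 collagen-modifying genes, and in 4.24% of all genes. The median log2 difference of the 24 genes in that step was 1.64, against -0.01 over all genes. The list was chosen with earlier results of these data known. Between day 15 and day 2 the median was 1.53, with 16 of the 24 past 2-fold upward (16.2% of all genes) and 0 downward (11.6%). The listed genes most different between day 15 and day 2 were Ndufa4l2, at least 124-fold higher, Aldoc, at least 58.2-fold higher (at least 2.41-fold by another probe set) and Adm, at 22.2-fold. The trough was weaker in the hypoxia and glycolysis list. Relative to day 2, its median log2 difference was -0.08 on day 9 and 0.06 on day 12. By brightest probe set, P4ha1, P4ha2 and Plod1 stood at -1.09, -1.29 and -1.24 on day 9. On day 12 they stood at -0.89, -1.15 and -0.99. Of the 24 listed genes, 6 were past 2-fold downward on day 9 and 3 upward. Between day 9 and day 6 the list's median was -0.49, with 20 of the 24 below 0. Whether low oxygen had a part in the hydroxylase levels was not tested.

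The late high extended to Ero1a, the oxidase that reforms disulfide bonds in the endoplasmic reticulum. Ero1a had 2483, 2923, 940, 907 and 4511 in order of day, and its 3 probe sets put day 15 between 4.09-fold and 4.98-fold above day 12. Loxl3, a lysyl oxidase needed for cartilage of the palate and spine in mice, read 8464, 5762, 2030, 2185 and 5210, with day 15 at 2.39-fold the day 12 level but 1.62-fold below day 2. Plod3, which also adds glucose to hydroxylysine, read 2549, 2035, 978, 1174 and 1988, lowest at day 9. Of the 28 other maturation genes measured, Ero1a, Loxl3 and P3h2 were the 3 past 2-fold upward in that step (4.24% of all genes). Downward, 0 were past it (3.92%). P4hb, the disulfide isomerase that serves as the beta subunit, did not dip in this way: it read 13388, 16775, 14060, 14493 and 19924. On the endoplasmic reticulum chaperone list, 0 of 16 genes stood at least 2-fold above day 12 at day 15 (4.24% of all genes). In that step 0 were at least 2-fold lower (3.92%), and the list's median log2 difference was 0.01. Between day 15 and day 2 the list had 2 members past 2-fold upward (16.2% of all genes), of which Pdia4 was 4.95-fold higher. Downward it had 0 (11.6%). Its median was -0.03, a sign that turned with array-median centring (0.11) and with the mean over probe sets (0.03).

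**Figure D2:**
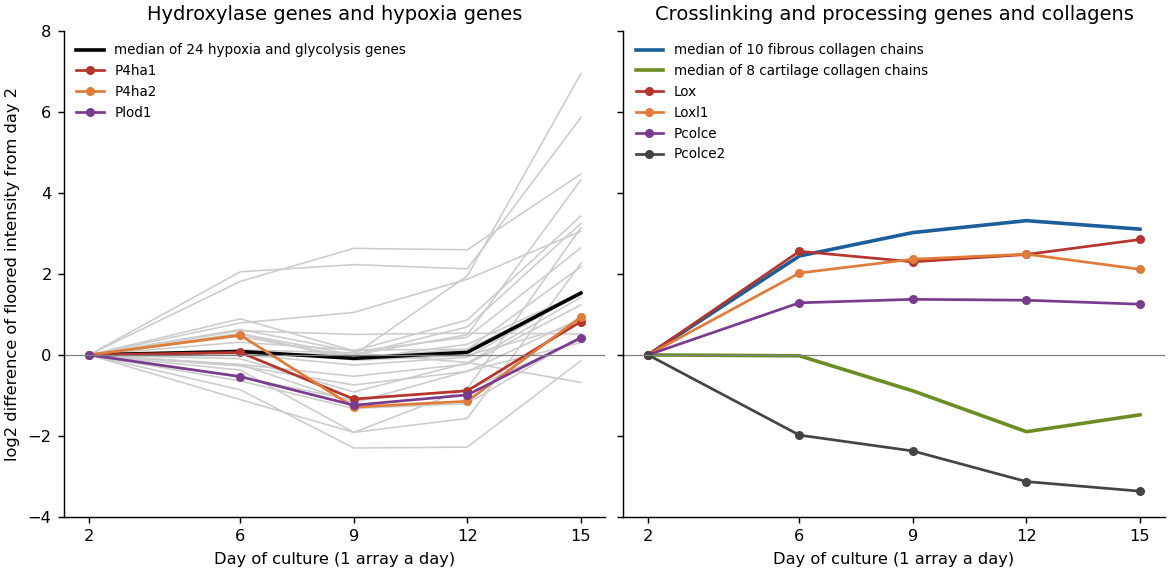
Log2 difference of floored intensity from day 2 by day of culture, 1 array a day. Left, P4ha1, P4ha2 and Plod1 (coloured) over 24 hypoxia and glycolysis genes (grey, median in black); the 3 coloured lines and the black median are highest at day 15. Right, Lox, Loxl1, Pcolce and Pcolce2 with the medians of 10 fibrous and 8 cartilage collagen chains; Lox, Loxl1 and Pcolce are high from day 6 while Pcolce2 is lower on each later array.

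Of the lysyl oxidase genes, Lox and Loxl1 had an early step. Loxl3 and Loxl4, read among the other maturation genes, were not higher at day 6 than at day 2. Lox, which crosslinks collagen and elastin, read 4853 at day 2 and 28642, 23914, 27121 and 35055 at days 6, 9, 12 and 15. A second probe set read 4709, 26745, 23739, 25137 and 34017. Both probe sets read higher on each of the 4 later arrays than on the single day 2 array. By both, Lox was 7.22-fold higher at day 15 than at day 2. The remaining, dim probe set read 126, 324, 195, 150 and 214, highest at day 6 and 1.70-fold higher at day 15 than at day 2. Loxl1, best known for elastic fibres, read 1116, 4541, 5754, 6272 and 4839, highest at day 12. It was 4.33-fold higher at day 15 than at day 2. Its dim second probe set was below the floor at days 2 and 6 and read 227, 157 and 167 at days 9, 12 and 15, at least 2.29-fold higher at day 15.

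The 2 procollagen C-proteinase enhancer genes differed in direction. Pcolce read 12902 at day 2 and 31502, 33428, 32926 and 30758 at days 6, 9, 12 and 15, and by its other probe set 2417, 8891, 9415, 9552 and 9643. At day 15 it was 2.38-fold and 3.99-fold higher than at day 2 by these probe sets, and the later 4 arrays differed little. Pcolce2, the related second enhancer, read 13222, 3344, 2549, 1508 and 1280, 10.3-fold lower at day 15 than at day 2. Most of that difference was already there at day 6, when Pcolce2 was 3.95-fold lower than at day 2. It was the only one of the 9 genes with its lowest array at day 15. Bmp1, the protease whose cleavage of the propeptide these enhancers speed, read 162, 403, 396, 497 and 289 by its brightest probe set. By that probe set it was 1.78-fold higher at day 15 than at day 2, but 1.17-fold lower by a second. The remaining probe set was below the floor on every array but day 15.

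Markers of other cell types differed over the same days. Summed over the 6 fibroblast markers, intensity was 5047, 11787, 28397, 30814 and 35856 in order of day, and 2 of the 6 were at or above the floor at day 2 and all 6 at day 15. The 5 osteoblast markers measured of 7 summed to 570, 1190, 15727, 30992 and 43143, the 6 adipocyte markers measured of 8 to 3329, 11914, 57778, 101987 and 53716, and the 5 smooth muscle markers to 9179, 22978, 30315, 38813 and 38273. At day 15, 5 of the 5 osteoblast, 6 of the 6 adipocyte and 3 of the 5 smooth muscle markers were at or above the floor, against 4, 4 and 2 at day 2. The 10 chondrocyte markers summed to 123876, 137018, 81836, 31179 and 41286, and the 6 epithelial markers to 3626, 733, 656, 618 and 578. Of 5 endothelial markers none was bright enough to be kept, of 5 macrophage markers 3 were and of 6 skeletal muscle markers 2 were. Sums over all markers of a type, kept or not, lay between 403 and 914 for macrophage and between 878 and 1880 for skeletal muscle. Whether these markers came from other cells or from the chondrocytes themselves was not tested, nor was their part in the levels of the collagen-modifying genes. In bulk RNA, fewer cells of a type and less RNA per cell cannot be told apart.

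By step between consecutive arrays, those past 2-fold upward between day 6 and day 2 were Lox, Loxl1 and Pcolce, 3 of 9 where 10.2% of all genes were. Pcolce2 was the 1 gene at least 2-fold lower in that step, where 5.7% of all genes were. At day 9, 2 members stood at least 2-fold below day 6, P4ha1 at 2.22-fold and P4ha2 at 3.43-fold, against 4.06% of all genes, and 0 were higher, against 5.89%. Between day 12 and day 9 none of the 9 reached 2-fold in either direction, in a step where 1.72% of all genes were higher and 1.51% lower. At day 15, P4ha1, P4ha2 and Plod1 stood at least 2-fold above day 12, where 4.24% of all genes were, and 0 members at least 2-fold below it, against 3.92% of all genes. Plod1 is no longer past 2-fold in that step when its probe sets are averaged. The steps share arrays, so a gene with a low array between high ones appears in both neighbouring steps.

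**Figure D3:**
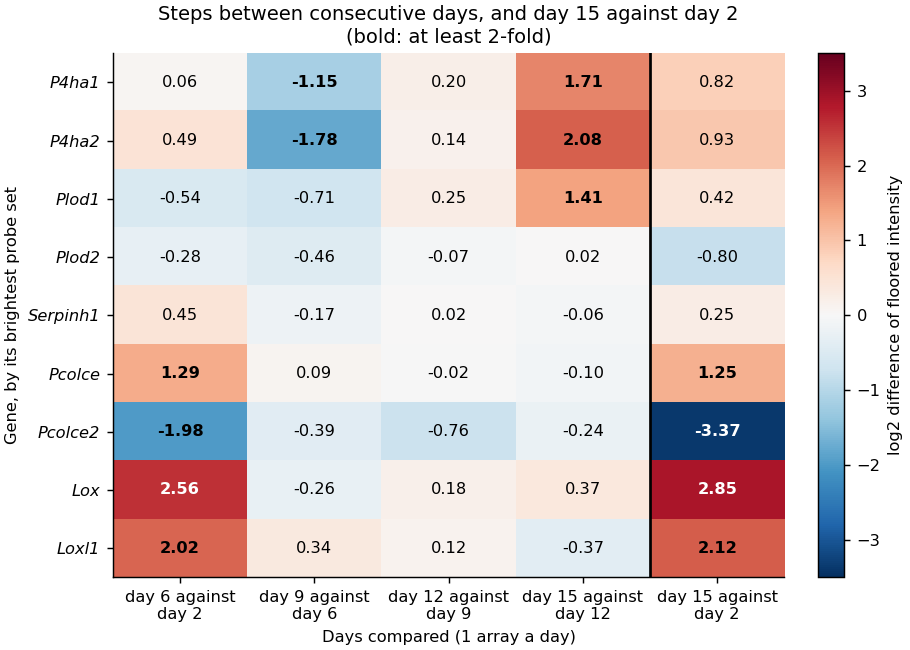
Log2 difference of floored intensity for the 9 genes (rows, brightest probe set) in each step between consecutive arrays and for day 15 against day 2 (last column); bold marks at least 2-fold. Lox, Loxl1 and Pcolce differ in the first step (2.56, 2.02 and 1.29), and P4ha1, P4ha2 and Plod1 in the last step (1.71, 2.08 and 1.41).

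Change over the 5 arrays was tested with a straight-line fit of log2 intensity against day. Over all 11075 genes limma called 6 rising (0.0542% of genes) and 0 falling (0.0%) at a Benjamini-Hochberg adjusted p of 0.05, and 0 of the 9 members in either direction. The lowest adjusted p by limma belonged to Pcolce2, at 0.0734 with a slope of -0.25 ± 0.04 log2 units per day (SE, n = 5 arrays). At an unadjusted p under 0.05 Lox and Loxl1 had a rising slope, 0.18 ± 0.06 and 0.15 ± 0.06, and Plod2 and Pcolce2 a falling one, with -0.07 ± 0.02 for Plod2, where 14.4% and 12.7% of all genes did so. Their limma adjusted p-values were 0.131 for Lox, 0.160 for Loxl1 and 0.138 for Plod2. A straight line describes neither a step at day 6 nor a trough at day 9, and the slopes of P4ha1, P4ha2 and Plod1 were 0.02 ± 0.07, 0.00 ± 0.08 and 0.01 ± 0.06.

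With log2 of day in place of day, which gives weight to the early arrays, limma called Lox, Loxl1 and Pcolce2, with adjusted p-values of 0.0357, 0.0398 and 0.0102. On that scale 734 genes were called rising and 475 falling. Over 15 alternative fits the adjusted p ranged between 0.0357 and 0.676 for Lox, between 0.0398 and 0.891 for Loxl1, and between 0.0102 and 0.269 for Pcolce2.

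Other genes of collagen maturation differed in both directions. Of 33 listed, 30 had a probe set of their own, 28 were bright enough to be kept, and Fkbp10 was not measured. At day 15, 7 of the 28 were at least 2-fold higher than at day 2, 4 were at least 2-fold lower and 17 were within 2-fold, where 16.2% of all genes were higher and 11.6% lower. Their median log2 difference was 0.54. By the trend test 0 of 28 passed in limma after adjustment, with 9 rising and 5 falling at an unadjusted p under 0.05, against 14.4% and 12.7% of all genes.

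The 7 higher genes had several roles. Fkbp7, a prolyl isomerase of the endoplasmic reticulum, was 11.7-fold higher at day 15, with 594, 2837, 4277, 5992 and 6918 in order of day. A second Fkbp7 probe set was below the floor on all 5 arrays. Creb3l1, a transcription factor that drives type I collagen in osteoblasts, read 268, 662, 656, 929 and 1447, 5.39-fold higher at day 15 than at day 2. P3h3, a member of the prolyl 3-hydroxylase family, was 4.60-fold higher, with 352 at day 2 as its lowest array. P4ha3, a further alpha subunit, read 162, 90.9, 208, 292 and 474, 2.92-fold higher at day 15 and with no trough at day 9. Tgm2, the crosslinking transglutaminase, was 3.30-fold higher by the brightest of its 6 probe sets. The other 5 disagreed, with 3 between 2.10-fold and 5.47-fold higher and 2 lower. Fkbp14, another isomerase of the endoplasmic reticulum, was 2.35-fold higher and Prdx4, a peroxiredoxin of that compartment, 2.07-fold higher. A dim second Fkbp14 probe set was below the floor on every array but day 15, where it was at least 1.13-fold higher. For Prdx4, 2 more probe sets were 2.52-fold and 2.19-fold higher, and a dim one was at least 2.30-fold lower.

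The 4 lower genes were Loxl4, P3h2, Colgalt2 and Creb3l2. Loxl4, a further lysyl oxidase, read 3513, 3085, 782, 419 and 695, 5.05-fold lower at day 15 than at day 2, and 4.11-fold by its other probe set. Loxl4 was thus high on days 2 and 6 and low on the 3 later arrays, whereas Lox was low on day 2 alone. P3h2, a prolyl 3-hydroxylase, read 1739, 489, 351, 221 and 443, 3.92-fold lower at day 15. Colgalt2, which adds galactose to hydroxylysine, read 277 at day 2 and was below the floor at day 15, at least 3.79-fold lower. Creb3l2, a transcription factor that promotes secretion in chondrocytes, was 2.01-fold lower at day 15 by its brightest probe set and 1.81-fold by the other.

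The prolyl 3-hydroxylation complex was higher by under 2-fold. Crtap, its scaffold, read 3691, 6283, 6727, 7226 and 7081, 1.92-fold higher at day 15 than at day 2. Ppib, cyclophilin B, read 18798, 19700, 24033, 27605 and 32097, 1.71-fold higher at day 15. P3h1, the enzyme of the complex, was higher by 1.40-fold with its brightest probe set and 1.09-fold with the other.

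**Figure D4:**
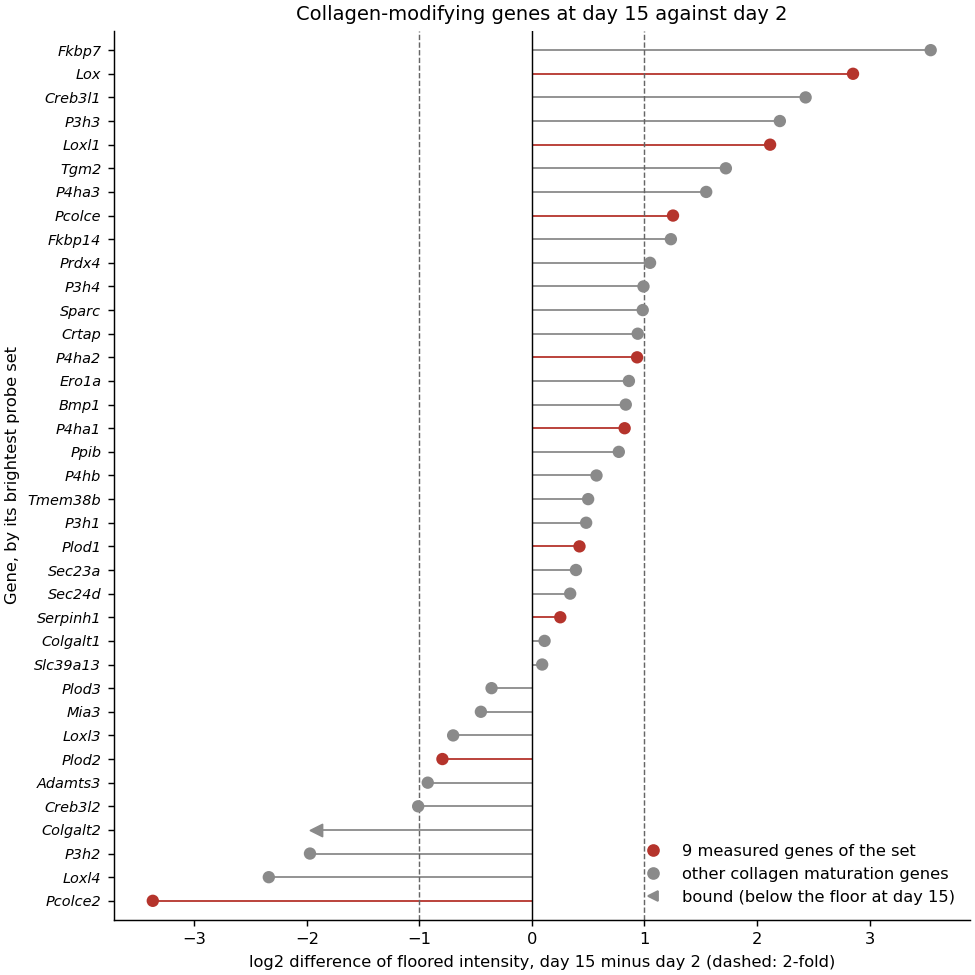
Log2 difference of floored intensity between day 15 and day 2 for the 9 measured genes (red) and 28 other collagen maturation genes (grey), by brightest probe set, with dashed lines at 2-fold. Fkbp7 and Lox stand highest (3.54 and 2.85) and Pcolce2 lowest (-3.37); the arrowhead for Colgalt2 is a bound.

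The substrates of these enzymes differed between days too. Of 10 fibrous collagen chains, 8 were past 2-fold upward between day 15 and day 2 (16.2% of all genes) and 0 downward (11.6%). Their median log2 difference was 3.11, or 1.60 when all probe sets of a gene were averaged. For Col1a1 the brightest probe set put day 15 at 116-fold the day 2 level and the other at 12.5-fold. The 8 cartilage collagen chains were each at least 2-fold lower at day 15, with a median of -1.48, and Col9a3 was 6.80-fold lower. The step at day 6 that Lox, Loxl1 and Pcolce had was also present in the fibrous chains. Their median log2 difference between day 6 and day 2 was 2.45, with 6 of 10 past 2-fold upward (10.2% of all genes). No relation between these courses was tested, since all comparisons share the day 2 array.

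The nearest courses among all 11075 genes were found by the root mean square distance between floored log2 values centred on each gene's mean over the 5 arrays, given as a description. For P4ha2 they were Ero1a at 0.11, Pdxp at 0.19 and P4ha1 at 0.25. For Plod1 they were Ldha at 0.07, Pgk1 at 0.09 and Pgam1 at 0.09, all of which encode glycolytic enzymes. For P4ha1 they were Coq8b at 0.07, 2500002B13Rik at 0.12 and Myo15 at 0.15. For Lox they were Prrx2 at 0.14, Rpain at 0.16 and Lynx1 at 0.16, for Loxl1 Ptprd at 0.06, Dclk1 at 0.08 and Bmf at 0.08, and for Pcolce Rcsd1 at 0.04, Zfp867 at 0.05 and Ssbp2 at 0.06. For Pcolce2 they were the kinase gene Rps6ka6 at 0.13, the thioredoxin reductase gene Txnrd1 at 0.17 and Mtm1 at 0.25. Some of these neighbours were below the floor on an array: Bmf and Rcsd1 at day 2, 2500002B13Rik at days 9 and 12, Pdxp at day 9 and Myo15 at day 12. Their distances rest on the floor value there. Plod2 and Serpinh1 spanned less than 2-fold by their brightest probe sets and were not matched. Within the set, P4ha1 lay nearest to Plod1 (0.22) and P4ha2 (0.25), Lox to Loxl1 (0.33), and the most distant pair was Lox and Pcolce2 (2.19).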

How the data were processed

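Values were the deposited probe-set intensities of 5 arrays, on a linear scale. The submitters' processing notes name MAS5 without a version, and with 2% trimmed from either tail the arrays each average 500.0. Mapping to a genome build is not given in the sources used here. The number of arrays limits the precision, and no sequencing depth applies. Array medians lay between 106 and 118, and Actb signal at the 3' end over that at the 5' end between 1.17 and 1.27. The same ratio for Gapdh lay between 0.62 and 0.80, lowest at days 9 and 12 (0.62 and 0.63).

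The 64 control probe sets were left out. Of 45037 others, 34945 carried 1 gene symbol in the platform annotation, 932 several and 9160 none, and 34741 matched a RefSeq gene table (GRCm38.p6) used for names. Intensities below the 40th percentile (73.0) were set to that floor before log2. A gene is its brightest probe set, kept where its mean reached 106, the median over probe sets, and "at least" marks a value at the floor. The trend was fitted with limma 3.58.1 in R 4.3.3 (lmFit, eBayes, two-sided, 3 residual degrees of freedom), after a test on simulated data. Other steps used Python 3.11.15, pandas 2.3.3, numpy 2.4.6, scipy 1.17.1 and matplotlib 3.10.9.

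The members and lists were chosen with earlier results of these data known. Genes named were all members, the other maturation genes past 2-fold with 9 fixed ones, at most 4 of each further list, and the 3 nearest courses to each member; Ero1a and the glycolytic neighbours entered by that last rule. Protein sequences were not used here.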

Additional observations from a re-analysis of the deposited data

How the results depend on the processing

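Alternatives were quantile normalization, centring on the array median, a lower and a higher floor (20th and 60th percentile), a pseudocount instead of a floor, averaged probe sets, no filter, a filter at the 70th percentile, a 4-fold threshold and other or pooled days. The day 15 against day 2 count of 3 members higher and 1 lower held within 1.5 times, with 2 exceptions. At day 15 against day 6, 0 were higher, and the log2 difference of Pcolce was -0.034. At day 12 against day 2, 2 were lower, Pcolce2 and P4ha2. Within that range, 2 were higher with days 12 and 15 pooled against days 2 and 6 pooled, and 2 at the 4-fold threshold. Pcolce dropped out in both, with a log2 difference of 0.66 for pooled days. Centring moved the median of all genes by 0.14, which put P4ha2 at 1.07, past 2-fold, and 11 of the 28 other maturation genes at least 2-fold higher in place of 7. With the mean over probe sets that count was 4. Counts by step were unchanged with quantile normalization. With averaged probe sets 2 members in place of 3 stood at least 2-fold above day 12 at day 15, since the dim probe set of Plod1 lowers its mean, and the other step counts were unchanged.

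By limma, 0 members had a trend in the main analysis, and between 0 and 0 in each direction when 1 array was left out. A filter at the 70th percentile and an intensity-dependent spread each called 1 falling member, Pcolce2 (adjusted p 0.0480 and 0.0319), and log2 of day called 2 rising and 1 falling. Over all genes, 6 rising and 0 falling calls became at most 734 and 475, with log2 of day, and 0 were rising with the higher floor, with no filter and in each fit without 1 array. The cause was not tested. No paired analysis was possible because there is 1 array a day. Dim probe sets of Plod1, Lox and Loxl1 lie near the floor and limit what their disagreement shows.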
